A study of Mus musculus with 31 samples.

Results

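Gene expression in the distal colon was compared between mice given the food additive E171, which is food-grade titanium dioxide, and their time-matched controls after 7 days of exposure. The comparison used the 4 CRC + E171 arrays and the 4 CRC arrays of 7 days, chosen by their sample titles, of the 31 one-colour arrays of the series. Both groups were BALB/c mice that were 4 to 6 weeks old, and both carried the chemically induced model of colorectal cancer: an injection of azoxymethane (AOM), a carcinogen, a week before the start, and 2% dextran sodium sulphate (DSS), which injures the colon lining, in the drinking water over the first 5 days. CRC + E171 mice received 5 mg of E171 per kg body weight per day by gavage on 5 days per week, and CRC mice received water by gavage. Each group held 2 males and 2 females with 1 array per mouse, named below by sex and replicate number. All mice had AOM and DSS, so the comparison describes E171 on top of that treatment and not E171 alone.

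The colon lining is a single sheet of epithelial cells, mostly absorptive colonocytes and mucus-secreting goblet cells, whose identity is maintained by transcription factors such as Hnf4a and Cdx2. DSS injury strips epithelium from the wall, and neutrophils and other leukocytes enter under chemokines such as Cxcl1 and Cxcl2 while metallopeptidases remodel the matrix. The RNA of a piece of colon wall therefore holds epithelial, stromal, muscle and leukocyte transcripts in proportions that can differ from piece to piece.

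Levels are given as the log2 of the processed signal relative to the 75th percentile of the same array, so 0 lies at that percentile and 1 unit is a doubling of signal. This percentile lay between 1950 and 6536 on the 8 arrays, and between 69.6 and 78.9% of spots passed the scanner's test of being well above background. The small number of arrays limits the precision. Fold changes are CRC + E171 minus CRC on the log2 scale, with the standard error (SE) of a limma fit over all 8 groups of the series. A differentially expressed gene (DEG) was one with an unadjusted p under 0.05 whose linear fold, up or down, reached 1.5. Xist, the RNA that silences an X chromosome in female cells, was between -1.62 and -0.74 on the 4 arrays of 7 days labelled female and between -8.32 and -6.88 on those labelled male. Over all 31 arrays 1 went against its sex label, CRC male 2 of 14 days, with Xist at -1.60 and the median of the Y-linked genes at -7.11, against -2.96 to -1.77 on the other arrays labelled male. It entered the comparison of 7 days through the error shared by all groups, and without it 2416 genes were DEG at 7 days (12.2%), 2391 of them also DEG with it.

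The 8 arrays were not equally alike, and some stood apart from their group. Counting genes that lay more than 2 log2 units outside the range of the 7 other arrays, CRC male 1 had 837, CRC male 2 had 142, and CRC + E171 female 2 had 115, while the remaining 5 arrays had 3 to 21. Spearman's correlation of CRC male 1 with the 7 others was 0.83 to 0.879 and that of CRC male 2 was 0.886 to 0.925 outside that pair. The CRC females correlated with each other at 0.98, and the CRC + E171 arrays among themselves at 0.95 to 0.978. The level of a gene list on an array was the median over its genes, each gene centred on its own mean of the 31 arrays. On this scale the pan-epithelial list (Epcam, Cdh1, Krt8 and 16 others) stood at -3.56 on CRC male 1 and -1.62 on CRC male 2, against 0.21 to 0.22 on the CRC females and 0.03 to 0.31 on the CRC + E171 arrays. CRC male 1 also stood at 6.66 for skeletal muscle, 6.78 for squamous epithelium and 4.31 for neutrophils. CRC male 2 stood at 7.91 for pancreatic acinar genes and 5.30 for neutrophils. The CRC females differed from each other too, with acinar genes at 6.57 on CRC female 1 and skeletal muscle at 1.80 on CRC female 2. The part of these differences between arrays in the results was not tested beyond leaving arrays out.

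**Figure D1:**
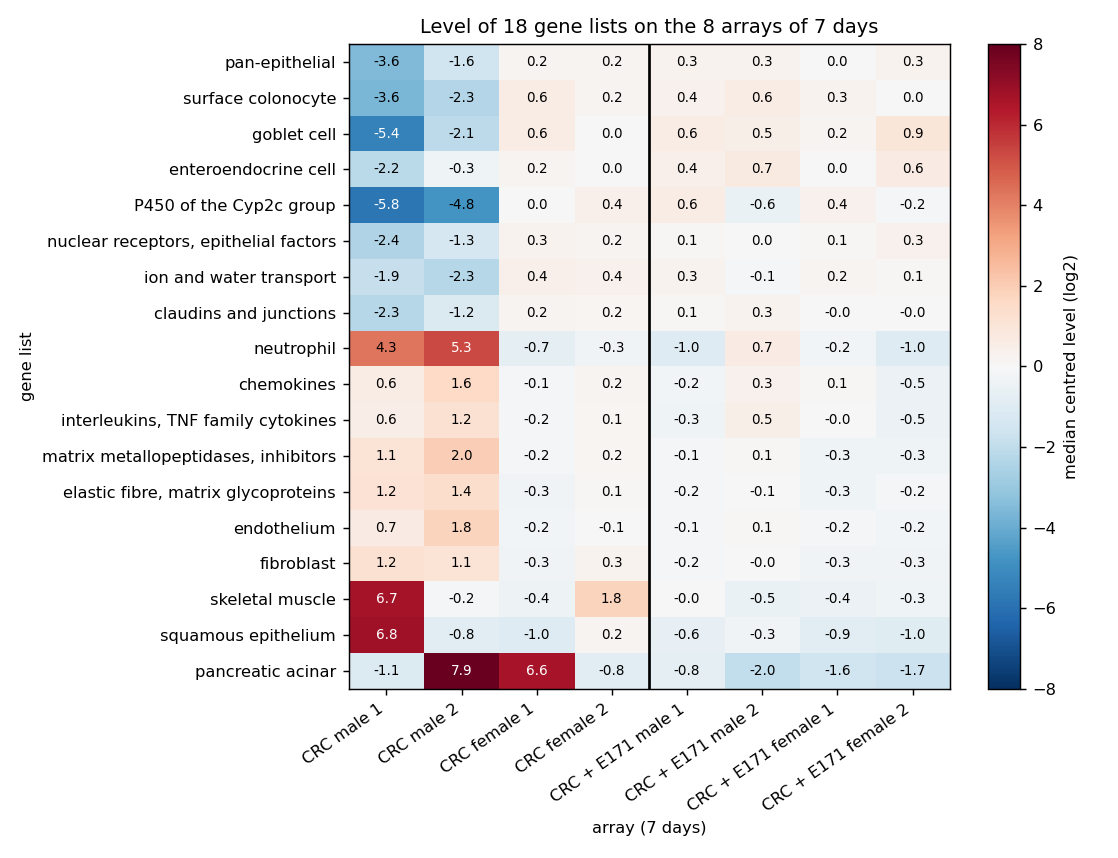
Level of 18 gene lists (rows) on each of the 8 arrays of 7 days (columns; the line separates CRC from CRC + E171), as the median over the list's genes of the log2 signal, each gene centred on its own mean of the 31 arrays. CRC male 1 and CRC male 2 hold the lowest epithelial and the highest neutrophil, matrix and endothelial levels, and in these 18 lists the 4 CRC + E171 arrays lie closer together than the CRC arrays.

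CRC + E171 female 2 stood apart from its own group in genes that differ along the length of the gut, chosen after their values were seen. Hoxb13, the homeobox gene of the B cluster that marks the most posterior body segments including the distal colon, was at 5.70, 5.14 and 5.68 on CRC + E171 male 1, male 2 and female 1, at 1.29 to 5.82 on the CRC arrays, and not well above background on CRC + E171 female 2 (-8.41). Over the 23 arrays of the other days Hoxb13 ranged from -6.83 to 6.49. Hoxd13, another posterior homeobox gene, Fxyd4, a regulator of the sodium pump, and Atp12a, the colonic proton pump, were at -8.19, -8.10 and -4.25 on this array, the lowest of the 8 for Hoxd13 and Fxyd4, while Atp12a was lower still on CRC male 2 (-4.76). In the other direction, Slc51a, a bile acid exporter of the ileum, was at 4.24 against -8.12 to -4.70 on the 7 others, Hoxb6 at 2.64 against -2.62 to -0.69, and Nts, the gene of the gut peptide neurotensin, at 2.77 against -8.42 to -3.26. Hoxb13 was thus not detected on 1 of the 4 CRC + E171 arrays, but the list of 10 posterior Hox genes did not set that array apart. Its level was -0.93 there, -1.06 on CRC + E171 male 2, -0.90 on CRC male 2 and -1.42 to 1.32 over the 23 arrays of the other days. On CRC + E171 female 1, Alb, which encodes the plasma protein albumin made by liver, was at 2.12 against -5.54 to -2.20 on the 7 others. S100a9, a neutrophil protein, was at 2.93 on CRC + E171 male 2 against -3.01 to -2.62 on the other CRC + E171 arrays.

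After 7 days of exposure 2458 of 19797 genes were DEG (12.4%), 1374 up-regulated (6.94%) and 1084 down-regulated (5.48%) with E171. By limma 0 genes passed an adjusted p under 0.05 (0%), the smallest adjusted p was 0.188, and 3331 genes (16.8%) had an unadjusted p under 0.05. Among the 4 CRC arrays the one farthest from the CRC median was CRC male 1 for 52.3% of the DEG and CRC male 2 for 25.9%. Without CRC male 1 there were 915 DEG (4.62%), without CRC male 2 there were 1737 (8.77%), and without both there were 455 (2.3%), 208 up-regulated (1.05%) and 247 down-regulated (1.25%). Without both, 0 genes passed the adjusted p, and the smallest adjusted p in limma was 0.9998, so a DEG of that fit rests on its unadjusted p alone. Without CRC female 1, by contrast, there were 3976 DEG (20.1%), and 1201 of all genes tested (6.07%) passed the adjusted p. Without CRC female 2 there were 3605 DEG (18.2%), and 536 of all genes tested (2.71%) passed it. Without CRC + E171 female 2 there were 2109 (10.7%; 5.95% up-regulated and 4.71% down-regulated), and 1718 of the 2458 DEG were among them (69.9%). The median size of the fold change over the 2458 DEG was 1.06 log2 units, and for the same genes without the CRC males it was 0.30, with 2025 of them (82.4%) keeping their sign. As the CRC + E171 arrays and the CRC females are in both fits, part of this agreement in sign follows from the shared arrays. In 14787 genes (74.7%) the standard deviation was larger among the CRC arrays than among the CRC + E171 arrays, with medians of 0.52 and 0.31. The arrays of all 4 CRC + E171 mice lay entirely above or below the CRC arrays for 449 DEG, 273 of them higher. Over all genes tested 4.84% did not overlap, 2.81% higher and 2.03% lower.

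No slide held arrays of both groups of 7 days, and the CRC and CRC + E171 arrays stood in different columns of their slides, so array position and E171 cannot be told apart. The first scan day held a male and a female of each group, and over these 4 arrays alone 2128 genes were DEG (10.7%). The limma p-values, also those within a scan day or a sex, measure a spread between mice pooled over the groups of all 31 arrays. They do not measure the spread of these 8 mice alone. With only the 8 arrays of 7 days in the fit, 945 of 19797 genes were DEG.

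The genes are described below by lists, whose counts stand beside the 12.4% of all genes that were DEG (6.94% up-regulated, 5.48% down-regulated). These counts moved with single arrays. Of 50 lists that held a DEG, 46 had fewer by more than 1.5 times without CRC male 1, 28 without CRC male 2 and 15 without CRC + E171 female 2, and 20 had more by that factor without CRC female 1. Without both CRC males 28 of the 50 held 0 DEG, and 12 of the 192 genes named by rule kept their call. In that fit 2.3% of all genes were DEG, a share at which a small list can hold 0. The counts without the CRC males given below stand beside that 2.3%. A member of a list that passed the filter on dim probes only through the CRC arrays of 7 days, where it was bright, was bound to be lower with E171. Among the lists there were 6 such genes: Cacng1, Stfa1, Il1a, Csf3, Cxcl17 and Chil4. The counts of DEG in their lists, and the medians beside these counts, leave them out, while list levels and the medians by sex and by day include them.

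**Figure D2:**
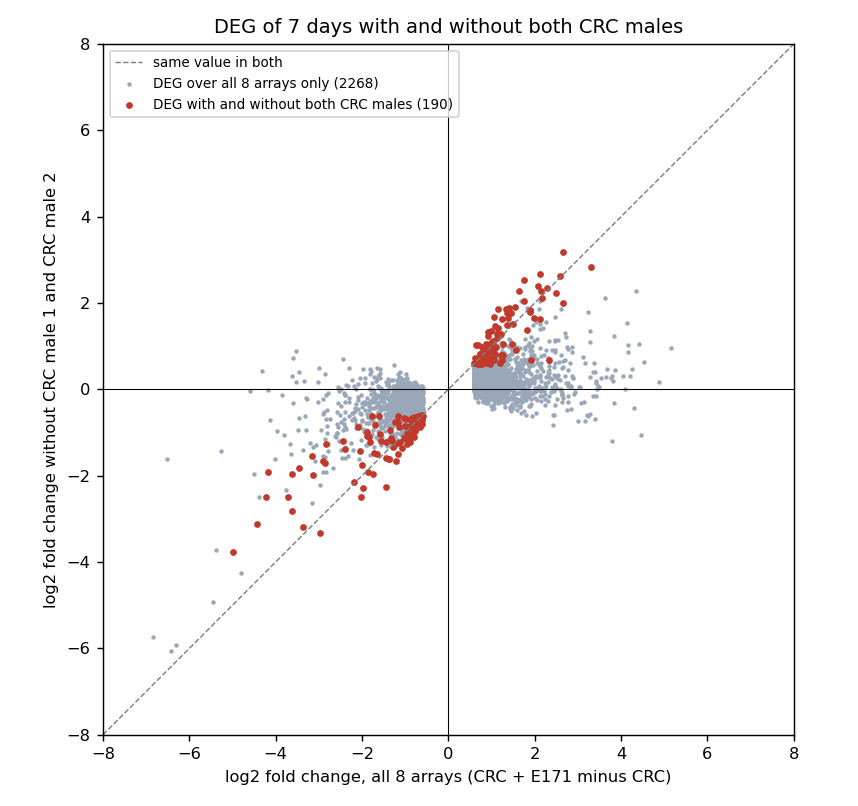
Log2 fold change of each DEG of 7 days over all 8 arrays (horizontal axis) against its value when CRC male 1 and CRC male 2 are left out (vertical axis); the dashed line marks equal values. Most of the 2458 points lie near 0 on the vertical axis, and the 190 red points were DEG both ways.

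Epithelial genes were higher in CRC + E171, and their shortfall lay on the CRC males. Of 19 pan-epithelial genes tested 18 were up-regulated and 0 were down-regulated, with a median fold change of 1.42 against -0.01 over all genes. In this bulk tissue fewer cells of a type and less RNA per cell cannot be told apart. Hnf4a, the nuclear factor that maintains the enterocyte programme, was at -4.37 and -0.57 on CRC male 1 and male 2, at 2.47 and 2.21 on the CRC females, and at 2.20 to 2.50 on the CRC + E171 arrays. The CRC females thus lay within the range of the CRC + E171 arrays, and the CRC males lay below it. Its fold change was 2.43 (SE 0.81), and without the CRC males it was 0.02 (SE 0.31). Cdx2, the homeobox factor of intestinal identity, was at -4.92, 0.16, 1.32 and -0.04 on CRC male 1, male 2, female 1 and female 2 and at 0.72 to 2.88 on the CRC + E171 arrays. These ranges overlapped through CRC female 1, and the fold change of 2.72 (SE 0.89) became 1.21 (SE 0.76) without the CRC males. Epcam and Cdh1, the adhesion molecules that define epithelium, rose by 1.0 (SE 0.49) and 0.91 (SE 0.38), and stood at -0.45 and -0.21 without the CRC males. Cdh17, an intestinal cadherin, was the pan-epithelial gene with no overlap between the groups: 1.13 to 1.54 with E171 against 1.02 and 1.07 on the CRC females and -4.44 and -0.82 on the CRC males. Without the CRC males 0 of the 19 pan-epithelial genes were DEG in either direction, with a median of 0.06, and without CRC + E171 female 2 there were 15 up-regulated.

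Among 32 nuclear receptors and epithelial transcription factors 18 were up-regulated and 0 down-regulated, with a median of 1.13. These counts were 0 and 1 without the CRC males, with a median of -0.09, 5 and 0 without CRC male 1 and 11 and 1 without CRC + E171 female 2. Nr1i2, the pregnane X receptor, which switches on genes of drug metabolism, was at -6.52 and -2.71 on the CRC males, at 0.09 and 0.15 on the CRC females and at 0.22 to 0.45 on the CRC + E171 arrays. The groups did not overlap, yet the CRC females came close to the CRC + E171 level, and the fold change of 2.59 (SE 0.84) was 0.22 (SE 0.43) without the CRC males. Nr3c2, the mineralocorticoid receptor, rose by 1.99 (SE 0.65), Vdr, the vitamin D receptor, by 1.67 and Isx, an intestinal homeobox factor, by 3.63; Vdr and Isx were chosen after their values were seen. Vdr stood at -0.39 without the CRC males, and Isx, highest on CRC + E171 female 2 (4.48), stood at 1.74 without CRC male 1, and neither was then a DEG. Sox9, a factor of crypt base cells, was at -1.72, -2.08, -0.89 and -0.64 on CRC male 1, male 2, female 1 and female 2 and at -0.31, 0.30, -0.42 and 0.10 on CRC + E171 male 1, male 2, female 1 and female 2. Every CRC + E171 array was above every CRC array, the fold change was 1.25 (SE 0.28), and without the CRC males it was 0.68 (SE 0.28) and still a DEG, but not without all 3 arrays that stood apart (0.62). Smoc2, a matricellular protein of the crypt base, moved the other way, with a fold change of -1.35 (SE 0.37), no overlap, and -0.93 without the CRC males, and it too was no DEG without all 3 arrays (-0.92). Over the 17 crypt stem cell genes 2 were up-regulated and 1 was down-regulated, and of 24 proliferation genes 0 passed in either direction, with medians of 0.08 and 0.07.

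Among the enzymes of drug and lipid metabolism, the Cyp2c family of cytochrome P450 enzymes had the largest positive median of the 58 lists. The Cyp2c genes lie in a cluster on chromosome 19 and encode enzymes that oxidise drugs and arachidonic acid. Of 13 tested 8 were up-regulated and 0 were down-regulated, with a median of 3.01. The promoters of 5 of these 8 genes carry the 9 letters CAAAGTCCA, a form of the site that HNF4 factors bind, within 250 bases before the start of the gene. The letters were searched on both strands in RefSeq promoters of mouse build GRCm38.p6 and were chosen after the values were seen, because Hnf4a and Cyp2c genes were low on the same arrays. Among all 27025 genes with a promoter sequence, 0.451% hold them, and among the 12 Cyp2c genes tested that have one, 6 do. The stretches of Cyp2c40, Cyp2c67, Cyp2c68 and Cyp2c69 are nearly the same, so their matches do not count as separate occurrences. A match describes the sequence and does not show binding. The stretches around the match are shown so that the shared letters can be seen, 5′ to 3′ on the strand of the gene, with the match in capitals: Cyp2c65 at chr19:39060850-39060938 (plus strand), Cyp2c40 at chr19:39812815-39812899, Cyp2c67 at chr19:39649119-39649207, Cyp2c68 at chr19:39741130-39741218 and Cyp2c69 at chr19:39886796-39886884 (these 4 on the minus strand).
Cyp2c65: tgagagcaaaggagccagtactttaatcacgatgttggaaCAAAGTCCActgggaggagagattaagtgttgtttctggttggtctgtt
Cyp2c40: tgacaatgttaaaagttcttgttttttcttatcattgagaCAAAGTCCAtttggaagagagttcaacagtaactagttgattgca
Cyp2c67: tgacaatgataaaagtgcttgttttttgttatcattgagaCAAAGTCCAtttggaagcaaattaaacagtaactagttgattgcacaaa
Cyp2c68: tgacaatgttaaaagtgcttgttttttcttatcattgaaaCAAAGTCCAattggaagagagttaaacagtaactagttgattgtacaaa
Cyp2c69: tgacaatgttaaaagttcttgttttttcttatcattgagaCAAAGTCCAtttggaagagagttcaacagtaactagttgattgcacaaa
The match begins 45 bases before the start in Cyp2c40, 75 in Cyp2c69, 77 in Cyp2c68, 116 in Cyp2c65 and 125 in Cyp2c67. Cyp2c70, a bile acid hydroxylase of liver, carries the letters too, and it was not called, at 0.08 (SE 0.31).

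Cyp2c69 was at -6.50 and -5.60 on CRC male 1 and male 2, at 1.89 and 1.38 on CRC female 1 and female 2, and at 2.00, 0.16, 1.17 and 0.79 on CRC + E171 male 1, male 2, female 1 and female 2. The CRC males were more than 5 units below every other array, and the CRC females lay above 3 of the 4 CRC + E171 arrays. Its fold change of 3.24 (SE 1.34) had the opposite sign without the CRC males (-0.61), as had that of Cyp2c40 (3.41 and -0.68), Cyp2c67 (2.46 and -0.58) and Cyp2c68 (3.21 and -0.60). Probes for these near-identical genes may pick up transcripts of one another. Cyp2c65 was at -8.10 and -5.73 on the CRC males, at -1.92 and -1.51 on the CRC females, at -1.76, -1.18 and -2.22 on CRC + E171 male 1, male 2 and female 1, and at 4.48 on CRC + E171 female 2. Its fold change of 4.14 (SE 1.62) thus drew on the low CRC males and on a single high CRC + E171 array. Cyp2c55, a colon enzyme that responds to pregnane X receptor ligands, had the same pattern, with 5.93 on CRC + E171 female 2 and 1.79 to 2.39 on the others of its group, and a fold change of 4.53 (SE 1.72). Without the CRC males 0 of the 13 genes were DEG and the median was -0.19, and without CRC + E171 female 2 there were 7 up-regulated with a median of 2.57.

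Outside the Cyp2c cluster 8 of 27 P450 genes were up-regulated in the Cyp2d, Cyp2j and other Cyp2 groups, with 0 down-regulated, and 5 of 19 in the Cyp3 and Cyp4 groups, with 1 down-regulated. These counts without the CRC males were 1 and 0, and 0 and 1, and without CRC + E171 female 2 the Cyp3 and Cyp4 counts were 2 and 1. Cyp2d34, Cyp2d12 and Cyp2d9 rose by 2.91, 2.62 and 2.64 and stood at -0.12, -0.13 and -0.09 without the CRC males. Cyp2j13 differed from these: it was at -4.31, -5.06, -4.66 and -4.34 on CRC male 1, male 2, female 1 and female 2 and at -3.31, -3.76, -3.95 and -3.54 on CRC + E171 male 1, male 2, female 1 and female 2. All CRC + E171 arrays were higher than all CRC arrays, and the fold change of 0.95 (SE 0.29) was 0.86 (SE 0.36) without the CRC males. Of 34 alcohol, aldehyde and keto reductases 9 were up-regulated and 1 was down-regulated. Aldh3a2, which oxidises fatty aldehydes, had no overlap and rose by 1.05 (SE 0.27), or 0.93 without the CRC males. Of the phase 2 enzymes, 3 of 11 UDP-glucuronosyltransferases were up-regulated and 0 down-regulated, 5 and 1 of 12 sulfotransferases, and 4 and 0 of 23 glutathione S-transferases. Without CRC + E171 female 2 these counts were 1 and 0, 4 and 1, and 1 and 1, and without the CRC males 0 genes of the 3 lists were DEG. Sult1d1 and Ugt2b34, which add sulfate and glucuronic acid to phenols and steroids, rose by 4.22 (SE 1.40) and 3.41 (SE 1.2), with 0.31 and -0.16 without the CRC males. Of 14 carboxylesterases 5 were up-regulated, among them Ces2b, Ces2c, Ces2e and Ces2f by 2.57 to 3.45. These 4 stood at 0.20, 0.01, 0.62 and 0.64 without the CRC males, where 0 of the 14 were DEG and the median was 0.02.

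**Figure D3:**
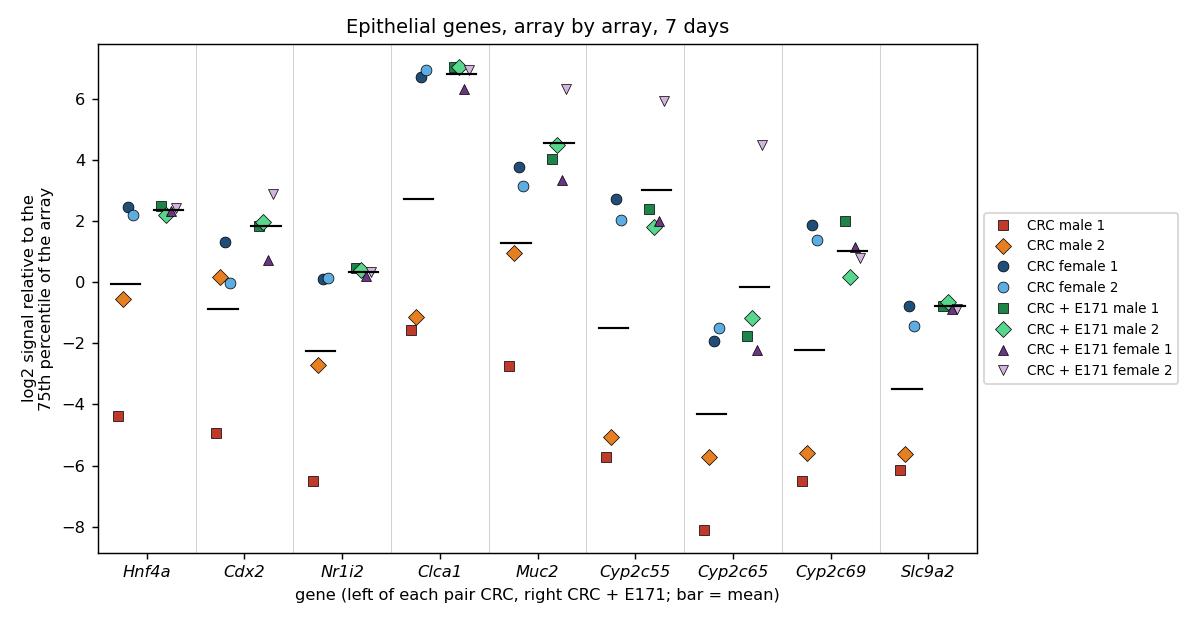
Log2 signal relative to the 75th percentile of the array for 9 epithelial genes, 1 point per array, with the mean of each group as a bar (CRC left, CRC + E171 right). For Hnf4a, Clca1 and Cyp2c69 the CRC females lie among the CRC + E171 arrays and the CRC males far below, for Slc9a2 CRC female 2 lies between them, and CRC + E171 female 2 stands above its group for Cyp2c55 and Cyp2c65.

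Of 18 goblet cell genes 13 were up-regulated and 0 down-regulated, with a median of 2.19. Clca1, a secreted protein of goblet cell mucus, was at -1.56 and -1.15 on the CRC males, at 6.71 and 6.94 on the CRC females and at 7.03, 7.04, 6.32 and 6.93 on CRC + E171 male 1, male 2, female 1 and female 2. The 2 CRC males were over 7 units below every other array, and the fold change of 4.09 (SE 1.34) was 0.00 without them. Muc2, the gel-forming mucin of the colon, was at -2.76, 0.95, 3.77 and 3.15 on CRC male 1, male 2, female 1 and female 2 and at 3.35 to 6.31 with E171, a fold change of 3.27 (SE 1.06) that was 1.09 (SE 0.99) without the CRC males. Fcgbp, which crosslinks mucus, rose by 3.78 (SE 1.21). Atoh1, the factor that commits cells to the secretory lineage, and Tff3, a goblet cell peptide, rose by 3.66 and 2.78 (chosen after their values were seen). Among 44 mucins and enzymes of mucin O-glycosylation 17 were up-regulated and 1 was down-regulated. Galnt7, which extends the first sugars of mucins, was higher on every CRC + E171 array (0.98 to 1.74) than on every CRC array (-0.87 to 0.79), with a fold change of 1.36 (SE 0.35), and 0.56 without the CRC males. C1galt1, which builds the core 1 glycan, also did not overlap and rose by 0.94 (SE 0.28), or 0.65 without the CRC males. Without the CRC males 0 of the 18 goblet cell genes were DEG.

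Of 21 enteroendocrine genes, which mark the hormone cells of the gut, 7 were up-regulated and 0 were down-regulated, with a median of 0.73. None of them was a DEG without the CRC males, where the median was 0.54, and without all 3 arrays that stood apart it was 0.23. Neurod1, a factor of these cells, was at -2.41 to -2.23 on the CRC + E171 arrays, at -2.80 and -2.96 on the CRC females and at -7.91 and -4.21 on the CRC males, a fold change of 2.13 (SE 0.86). Chgb and Sct, the genes of chromogranin B and secretin, rose by 1.73 (SE 0.73) and 1.84 (SE 0.79). Of 16 serotonin genes 5 were up-regulated and 0 down-regulated, among them Slc18a1, the vesicle transporter that loads serotonin, by 1.72 (SE 0.49) and Maoa, which degrades it, by 2.05 (SE 0.66).

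Of 20 surface colonocyte genes 10 were up-regulated and 0 down-regulated, and of 40 ion and water transport genes 14 and 0, with medians of 1.58 and 0.67. Without the CRC males 0 of the 20 surface colonocyte genes were DEG, with a median of 0.04, and 0 of the 40 transport genes were up-regulated and 2 down-regulated, with a median of -0.28. Slc9a2, a sodium-proton exchanger, was at -6.16 and -5.61 on the CRC males, at -0.77 and -1.43 on the CRC females and at -0.89 to -0.63 on the CRC + E171 arrays. The fold change of 2.70 (SE 0.85) was 0.31 without the CRC males. Car1, a carbonic anhydrase of colonocytes, rose by 4.16 (SE 1.24), with its highest level, 6.97, on CRC + E171 female 2. Aqp8, a water channel, and Slc26a3, the chloride-bicarbonate exchanger of the colon, were chosen after their values were seen. They rose by 3.78 and 3.18, and stood at -1.19 and -0.73 without the CRC males. Guca2a, the gene of guanylin, which drives fluid secretion, rose by 3.38 (SE 1.08). Cftr and Clcn2, chloride channels, rose by 2.27 and 2.06. Of 34 genes of claudins and junctions 14 were up-regulated and 0 down-regulated, and Cldn7, Cldn23 and Marveld2 rose by 1.29, 1.54 and 1.28, with 0.24, 0.16 and 0.07 without the CRC males. In the list of bile acid, organic ion and short-chain fatty acid transport 11 of 32 were up-regulated and 2 down-regulated. These counts were 4 and 2 without CRC + E171 female 2, the array with the high Slc51a. Slc16a3, the lactate exporter of glycolytic cells, was down-regulated with no overlap, at -0.16 to 1.27 with E171 and 1.70 to 2.75 without, a fold change of -1.63 (SE 0.54), and -1.15 without the CRC males.

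The neutrophil genes that passed were lower in CRC + E171, and the high values lay on the CRC males. Of 20 neutrophil genes 9 were down-regulated and 0 up-regulated, with a median of -2.44, and without the CRC males 0 were DEG, with a median of 0.15. Mmp8, the collagenase of neutrophil granules, was at 0.60 and 2.50 on the CRC males, at -4.31 and -3.39 on the CRC females and at -4.96 to -4.12 on the CRC + E171 arrays, a fold change of -3.33 (SE 0.92). Lcn2, an iron-binding antimicrobial protein, was at 4.77 and 5.18 on the CRC males, at -3.78 and -3.92 on the CRC females and at -3.44, -1.51, -3.64 and -3.30 on CRC + E171 male 1, male 2, female 1 and female 2. The CRC females were the lowest of all 8 arrays for Lcn2, so the fold change of -3.53 (SE 1.38) was 0.88 (SE 0.76) without the CRC males. Camp, the gene of the antimicrobial peptide cathelicidin, and Retnlg fell by 2.09 and 2.40, and stood at 0.13 and -0.29 without the CRC males. Of 21 macrophage genes 10 were down-regulated and 1 was up-regulated, including Fcgr3, an Fc receptor, by -1.24 (SE 0.35), and Clec10a and Mrc1, lectin receptors, by -1.73 and -1.09. The macrophage list held 0 DEG without the CRC males, with a median of -0.24, and without CRC + E171 female 2 there were 5 down-regulated. The lists of T and NK cells and of B and plasma cells had 0 DEG of 24 and 0 of 16.

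Of 51 chemokines and their receptors 16 were down-regulated and 3 were up-regulated, with a median of -0.53. Cxcl1 and Cxcl2, which recruit neutrophils through Cxcr2, were chosen after their values were seen. Both promoters carry GGAATTTCC, a form of the NF-kappaB site, on the strand of the gene, and the letters, searched on both strands in the 250 bases before the start, occur in 0.344% of all promoters and in 4 of 38 chemokine promoters (Ccr3, Cxcl1, Cxcl10 and Cxcl2). Mmp13, an interstitial collagenase, carries TGACTCA, a form of the AP-1 site TGANTCA, which occurs in 7.82% of all promoters and in 5 of 19 promoters of metallopeptidases and their inhibitors. Both motifs were chosen after the values were seen, and no match stands for binding. The stretches are shown in the same way, from Cxcl1 at chr5:90891135-90891223, Cxcl2 at chr5:90903763-90903851 and Mmp13 at chr9:7272439-7272513, all on the plus strand, with the match 70, 96 and 35 bases before the start.
Cxcl1: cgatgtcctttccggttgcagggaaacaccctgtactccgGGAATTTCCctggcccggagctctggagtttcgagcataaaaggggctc
Cxcl2: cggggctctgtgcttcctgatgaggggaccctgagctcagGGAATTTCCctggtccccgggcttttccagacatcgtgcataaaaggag
Mmp13: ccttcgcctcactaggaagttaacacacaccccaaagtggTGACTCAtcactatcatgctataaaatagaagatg
Cxcl1 was at 3.94 and 5.18 on the CRC males, at -4.06 and -4.08 on the CRC females and at -3.25, -2.13, -3.51 and -4.52 on CRC + E171 male 1, male 2, female 1 and female 2. The CRC males were over 6 units above every other array, and the fold change of -3.59 (SE 1.47) lay above 0 without them. Cxcl2 was at 0.11 and 0.96 on the CRC males and not well above background on the CRC females or on any CRC + E171 array. The CRC mean lay 6.65-fold above the floor of the CRC + E171 arrays, a value that rests on the CRC males. Without them the fold change of Cxcl2 was -0.02 (SE 1.14). Csf3, the growth factor of neutrophils, was likewise not well above background on any CRC + E171 array. Its CRC mean lay 7.78-fold above that floor, but it had entered only through the CRC arrays. Ccl7, a monocyte chemokine, fell by 2.23 (SE 0.62) with no overlap, at -1.68 to -0.71 with E171 against -0.66 and -0.57 on the CRC females and 2.23 and 3.28 on the CRC males. Ackr3, a scavenger receptor for chemokines, did not overlap either and fell by 1.58 (SE 0.37), or by 0.75 without the CRC males. Of 51 cytokines and their receptors 12 were down-regulated and 2 up-regulated. Il11, a stromal cytokine of the IL-6 family, fell by 3.28 (SE 1.06), and Il6, well above background on 3 CRC and 2 CRC + E171 arrays, by 4.58 (SE 1.66). Without the CRC males, where 2.3% of all genes were DEG, 0 of the 51 chemokine and 0 of the 51 cytokine genes were, with medians of -0.10 and -0.09.

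**Figure D4:**
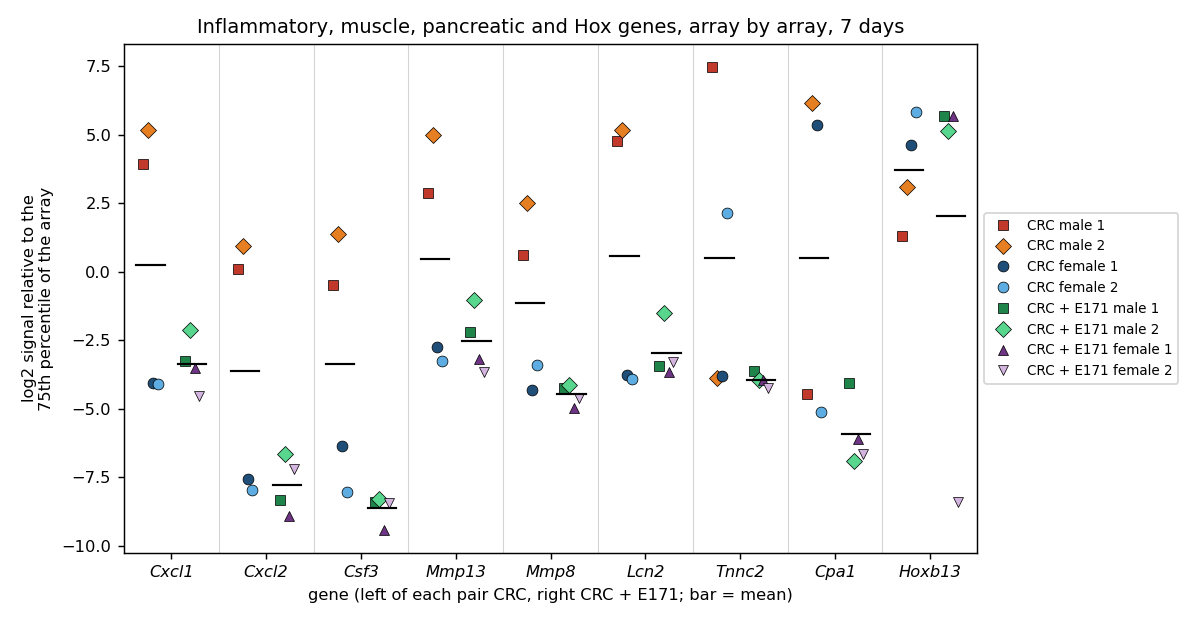
Log2 signal relative to the 75th percentile of the array for 9 inflammatory, muscle, pancreatic and Hox genes, 1 point per array, with the mean of each group as a bar (CRC left, CRC + E171 right). Cxcl1, Cxcl2, Csf3, Mmp13, Mmp8 and Lcn2 are high on the CRC males alone, Tnnc2 on CRC male 1 and CRC female 2, Cpa1 on CRC male 2 and CRC female 1, and Hoxb13 is low on CRC + E171 female 2.

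In each list of matrix, vessel and complement genes most members did not pass, and those that did were mostly down-regulated. Of 24 metallopeptidases and inhibitors 8 were down-regulated and 0 up-regulated, and of 48 elastic fibre and matrix glycoprotein genes 18 and 0, with medians of -0.84 and -0.73. Mmp13 was at 2.88 and 5.00 on the CRC males, at -2.76 and -3.25 on the CRC females and at -2.21, -1.04, -3.17 and -3.66 on CRC + E171 male 1, male 2, female 1 and female 2. The CRC females lay inside the range of the CRC + E171 arrays, and the fold change of -2.99 (SE 1.10) was 0.49 without the CRC males. Lama5, a laminin chain of basement membranes, was lower on every CRC + E171 array (1.10 to 1.68) than on every CRC array (1.88 to 3.72), a fold change of -1.35 (SE 0.36), and -0.59 without the CRC males. Of 40 collagens 5 were down-regulated and 0 up-regulated, beside 12.4% of all genes in either direction and 5.48% down-regulated, including Col5a1 and Col8a1 by -1.32 and -1.42. Of 20 endothelial genes 9 were down-regulated and 0 up-regulated. Emcn, a surface protein of capillaries, did not overlap and fell by 1.05 (SE 0.33), and Flt1, a receptor of vascular growth factors, fell by 1.37 (SE 0.44) and stood at 0.02 without the CRC males. Of 32 genes of clotting and the vessel wall 12 were down-regulated and 1 was up-regulated. Of 33 complement genes 8 were down-regulated and 1 up-regulated, and C5ar1, the receptor of the C5a fragment, had no overlap and fell by 1.74 (SE 0.47), or by 0.64 without the CRC males. Of 42 prostaglandin and leukotriene genes 11 were down-regulated and 3 up-regulated. Among them, Alox5, which makes leukotrienes, did not overlap and fell by 0.98 (SE 0.28), and Ltb4r1, a leukotriene B4 receptor, fell by 1.82 (SE 0.48). Without the CRC males 0 genes of the metallopeptidase, glycoprotein, endothelial, complement or prostaglandin lists were DEG, 1 of the 40 collagens was down-regulated and 1 of the 32 clotting genes up-regulated, beside 2.3% of all genes.

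The levels of the skeletal muscle and pancreatic acinar lists were high on some CRC arrays and lay at -0.50 to -0.01 and -1.99 to -0.81 on the CRC + E171 arrays. Of 24 skeletal muscle genes 16 were down-regulated and 1 was up-regulated, and without the CRC males 12 were down-regulated. Tnnc2, the fast muscle troponin C, was at 7.47 on CRC male 1, 2.15 on CRC female 2, -3.88 on CRC male 2 and -3.79 on CRC female 1, and at -4.24 to -3.62 with E171. It was thus high on 2 of the 4 CRC arrays and level with the CRC + E171 arrays on the other 2, and its fold change was -4.43 (SE 1.45), or -3.12 without the CRC males. Neb, Actn3 and Myoz1, parts of the muscle filament, fell by 3.46, 3.16 and 3.63. Of 22 squamous epithelium genes, which line skin and anal canal, 0 were DEG although the median was -2.32. With CRC male 1 left out the median was -0.27, and with CRC male 2 or CRC female 1 left out 7 and 4 were down-regulated. Of 21 pancreatic acinar genes 5 were down-regulated and 1 was up-regulated, the latter Zg16, which colon goblet cells also express. The number down-regulated was 17 without CRC male 1 and 0 without CRC male 2, without CRC female 1 or without both CRC males. Cpa1, a pancreatic carboxypeptidase, was at 6.15 and 5.36 on CRC male 2 and CRC female 1, at -4.45 and -5.12 on CRC male 1 and CRC female 2, and at -6.92 to -4.06 with E171. Of the 12 largest decreases with no overlap between groups, Prss2, Rnase1 and Cel were pancreatic enzymes, with fold changes of -6.31 (SE 2.99), -5.39 (SE 2.34) and -4.79 (SE 2.31). On other days the list reached levels as high: over the 23 arrays of 2, 14 and 21 days the acinar level ranged from -2.87 to 10.003, and the squamous level from -0.98 to 5.32, while skeletal muscle did not exceed 0.12.

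Of the 2458 DEG 190 (7.73%, or 41.8% of the 455) were also DEG without the CRC males, 100 up-regulated and 90 down-regulated in both, and 125 of these were also DEG without CRC + E171 female 2 and without all 3 arrays, where 2% of genes were DEG. The fits with and without the CRC males share all CRC + E171 arrays and both CRC females, so their agreement follows in part from that. The 90 include skeletal muscle genes such as Neb, Actn3, Myoz1 and Tnnc2. The level of the skeletal muscle list was 1.80 on CRC female 2 and -0.42 on CRC female 1. Of the 190 genes 94 did not overlap between the groups, 62 higher and 32 lower with E171. Over all genes 4.84% did not overlap, 2.81% higher and 2.03% lower, and of the 2458 DEG 449. The 190 were selected for their differences on these same arrays, so their larger share follows in part from the selection. Stra6, a receptor for retinol transport, was at -1.91, -0.21, -0.05 and 0.70 on CRC male 1, male 2, female 1 and female 2 and at 2.54, 1.08, 2.10 and 1.83 on CRC + E171 male 1, male 2, female 1 and female 2. All CRC + E171 arrays were higher, with a fold change of 2.26 (SE 0.66), but without the CRC males it was 1.56 (SE 0.78) and no longer a DEG. Cox7b2, an isoform of a subunit of cytochrome c oxidase, was at -8.16 to -5.87 on the CRC arrays, only 1 of them well above background, and at -4.75 to -2.47 on the CRC + E171 arrays. Its fold change was 3.31 (SE 0.97), and 2.83 (SE 1.19) and still a DEG without the CRC males, with an adjusted p of 0.9998 in limma. The genes with the 2 smallest p of the comparison, both chosen after their values were seen, were Tor1aip2, a cofactor of the torsin ATPase of the nuclear envelope, and Cystm1, a small membrane protein. Tor1aip2 was at -2.01, -1.82, -1.53 and -0.61 on CRC male 1, male 2, female 1 and female 2 and at -0.33 to -0.23 on the CRC + E171 arrays, a fold change of 1.23 (SE 0.23), and 0.81 without the CRC males. Cystm1 was at -0.58 to 0.34 on the CRC arrays and at 0.76 to 1.88 with E171, a fold change of 1.47 (SE 0.28), and 1.06 without the CRC males. In limma both had an adjusted p of 0.188, and of 0.9998 without the CRC males.

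Among other genes that were higher without overlap, and DEG also without the CRC males and without all 3 arrays, were Eea1, a tether of early endosomes, Tsc1, which restrains mTOR signalling, Atg13, which starts autophagy, Phka1, a subunit of phosphorylase kinase, and Pigg, which modifies membrane anchors. They were chosen after their values were seen. Their fold changes were 0.96, 0.75, 0.63, 1.12 and 1.5, and 0.93, 0.60, 0.73, 1.19 and 1.52 without the CRC males.

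On the down-regulated side, Pi16, a marker of a fibroblast population of vessel and organ sheaths, was at 4.76, 2.85, 1.47 and 2.12 on CRC male 1, male 2, female 1 and female 2 and at 0.33, 0.24, 0.53 and 0.57 on CRC + E171 male 1, male 2, female 1 and female 2. The groups did not overlap and the CRC + E171 arrays lay within 0.4 units of each other, with a fold change of -2.38 (SE 0.60), and -1.38 (SE 0.63) without the CRC males. Fgf18, a fibroblast growth factor, was at 0.57, -0.98, -2.05 and -0.74 on the CRC arrays in that order and at -3.31 to -2.08 with E171, a fold change of -1.82 (SE 0.48), and -1.23 without the CRC males. Apln, the gene of the vessel peptide apelin, Vegfd, a lymphatic growth factor, Tspan4, a tetraspanin of migrating cells, and Podn, a matrix proteoglycan, were chosen after their values were seen. Apln was at -1.63, -1.18, -1.65 and -2.08 on CRC male 1, male 2, female 1 and female 2 and at -4.77, -3.48, -2.88 and -3.39 with E171 in the same order. Its fold change of -1.99 (SE 0.46) was -1.76 without the CRC males, and it was a DEG both ways. Vegfd, Tspan4 and Podn fell by 1.88, 1.84 and 0.76, and by 1.09, 1.10 and 0.73 without the CRC males. Bnip3, a hypoxia-responsive mitophagy protein, and Il31ra, a cytokine receptor chain, fell by 0.87 and 1.03, and by 0.70 and 1.12 without them, but Il31ra stood at 0.01 under normexp background correction.

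**Figure D5:**
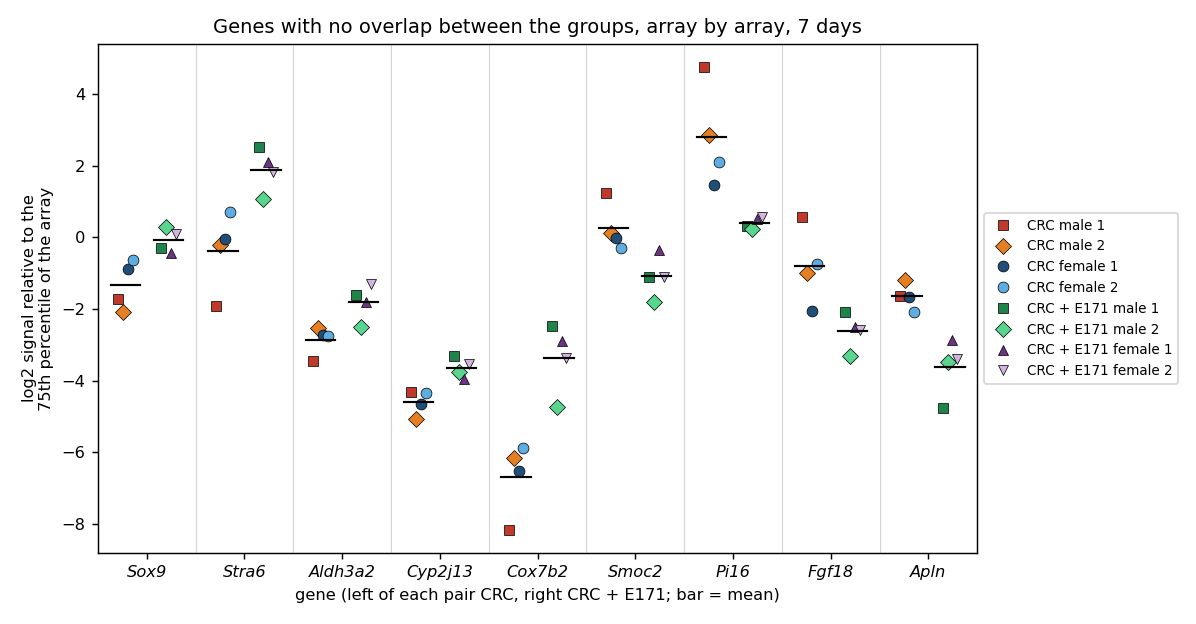
Log2 signal relative to the 75th percentile of the array for 9 genes whose CRC and CRC + E171 arrays did not overlap, 1 point per array, with the mean of each group as a bar (CRC left, CRC + E171 right). The genes were chosen for this separation, and the space between the groups is small for Aldh3a2, Smoc2 and Fgf18.

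The remaining increases with no overlap that were largest were Slc30a10, a manganese exporter, A1cf, a cofactor of RNA editing, Klrh1, Nat3, Panct2, Gprin3 and Apol7c, with fold changes of 1.99 to 4.34. Slc30a10 was at -8.12, -8.69, -3.33 and -5.19 on CRC male 1, male 2, female 1 and female 2 and at -3.25 to -0.01 with E171, so that CRC female 1 lay next to CRC + E171 female 1 (-3.25). It rose by 4.34 (SE 1.59), and stood at 2.27 (SE 1.88) without the CRC males. A1cf and Gprin3 stood at 0.44 and 0.58 without them. Panct2 was not well above background on any CRC array and at least 2.50-fold higher. On the down-regulated side Teddm3, Trex2 and Psors1c2 were high on CRC male 1 (5.11, 2.35 and 2.56) and at -5.53 to -2.96 on the 3 other CRC arrays. Tpsab1, a mast cell tryptase, Six4, a homeobox factor, and Angptl7 fell by 2.90 (SE 0.93), 2.86 (SE 0.86) and 2.46 (SE 0.73), and stood at -1.91, -1.57 and -1.58 without the CRC males. Itgbl1 and Cpz fell by 3.17 (SE 1.42) and 2.58 (SE 0.98).

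Lists of stress, damage and signalling genes varied in their share of DEG around the 12.4% of all genes. Of 33 NRF2 targets and antioxidant enzymes 4 were down-regulated and 0 up-regulated, among them Hmox1, haem oxygenase 1, by -1.63 (SE 0.56), and of 30 p53 targets and DNA repair genes 3 and 0. Of 30 immediate-early genes 7 were down-regulated and 0 up-regulated, among them Fosl1, an AP-1 subunit, by -2.49 (SE 0.79) and Dusp1, a phosphatase of MAP kinases, by -1.04 (SE 0.38). Of 37 interferon-stimulated genes 5 were up-regulated and 0 down-regulated, among them Irf7 and Oasl1 by 1.23 and 1.05, and both stood below 0 without the CRC males (-0.09 and -0.25). Of 20 clock genes Per1 alone passed, at -0.84 (SE 0.25). Of 46 Wnt ligands, receptors and modulators 8 were down-regulated and 1 was up-regulated, the latter Fzd5, a receptor of Paneth and crypt cells, by 1.34 (SE 0.40). Of 39 genes of activin, BMP and TGF-beta signalling 8 were down-regulated and 2 up-regulated, with Inhbb, an activin subunit, at -2.59 (SE 0.81). In the Wnt, immediate-early, interferon-stimulated and activin lists 0 genes were DEG without the CRC males, with medians of -0.05, -0.05, -0.28 and -0.08, and the 8 down-regulated Wnt genes were 0 without CRC male 1 alone. Without both CRC males the NRF2 list held 1 down-regulated gene, the p53 list 1 up-regulated gene and the clock list 3 down-regulated genes.

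The difference between CRC + E171 and CRC was tested against the labelled sex, since the CRC males and females differed. That difference had been seen on the same arrays, so the test is no separate evidence of it. By limma's interaction term 744 genes (3.76%) had an adjusted p under 0.05, 733 of them with a larger difference in males, and 483 were DEG. Without CRC male 2 of 14 days, the array that went against its sex label, 619 genes (3.13%) passed, 606 of them among the 744. Within males alone, 2 arrays against 2, there were 5391 DEG (27.2%), and 3032 of all genes tested (15.3%) had an adjusted p under 0.05 in limma. Within females there were 398 DEG (2.01%), with 0 genes (0%) at an adjusted p under 0.05 in limma and 485 (2.45%) at an unadjusted one. The pan-epithelial list had a median difference of 2.90 in males and -0.05 in females, the Cyp2c list 5.45 and -0.16, and the neutrophil list -5.00 and -0.14. Clca1 differed by 8.38 in males and by -0.20 in females (adjusted p 0.00542 in limma), Lcn2 by -7.45 and 0.38 (0.00325), Flt1 by -3.01 and 0.26 (0.00108) and Muc3, a membrane mucin, by 5.18 and 0.10 (0.00325). With 2 arrays of a sex in each group, the sex and the particular mice cannot be told apart, and the CRC males are the arrays described above as standing apart. For Cyp2j13, Aldh3a2, Cox7b2 and Stra6 the interaction had an adjusted p of 0.784, 0.832, 0.934 and 0.696 in limma.

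Against the mean difference of 2, 14 and 21 days, which used other CRC and CRC + E171 arrays, the difference at 7 days passed an adjusted p under 0.05 for 0 genes in limma (0%), with 2338 (11.8%) at an unadjusted p under 0.05 and a smallest adjusted p of 0.403. The pan-epithelial list, with a median difference of 1.42 at 7 days, had 0.07, 0.03 and 0.23 at 2, 14 and 21 days. Across the 23 arrays of those days its level ranged from -0.43 to 0.57, so CRC male 1 and CRC male 2 lay below every other array of the series. Hnf4a differed by 2.43 at 7 days and by 0.15, -0.09 and 0.23 at 2, 14 and 21 days. The neutrophil list had medians of 0.09, 0.09 and -0.26 on the other days, with levels of -1.56 to 3.52. The CRC males at 7 days, at 4.31 and 5.30, thus lay above these too. For Cyp2c65 the other days gave 0.65, 2.77 and 0.35, and for Stra6 0.23, -0.26 and 0.23.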

How the data were processed

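Distal colon RNA was measured on Agilent one-colour mouse arrays, 1 per mouse. The authors deposited scanner files whose spot intensity was background-subtracted by Agilent Feature Extraction 10.7.3.1, and a matrix of log2 values that the authors normalized between arrays by a method not given in the sources used here, after removal of flagged and dim spots and imputation of missing values. Here the log2 of the deposited processed intensity minus each array's 75th percentile over non-control probes was used. Of 56605 probes, 42787 were well above background on at least 60% of the arrays of a group, with spots flagged as outliers left out, and had a mean log2 signal of at least 4 there. Of these 34344 were matched to RefSeq genes by accession, symbol or synonym and averaged to 19797 genes. In limma 3.58.1 (R 4.3.3) 1 coefficient per group was fitted over the 31 arrays with Benjamini-Hochberg adjustment. A difference between sexes used 16 groups, of which the males of CRC at 14 days held 1 array whose Xist level went against its label.

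The genes named were the 12 largest increases and 12 largest decreases with no overlap between groups, up to 4 called members with the smallest p per list, and others chosen after their values were seen. Among these others, not all marked so where they appear, were Epcam, Cdh1, Il6, Bnip3, Il31ra, Cyp2c67, Cyp2c68, Alb, S100a9, Mmp10, Cxcl5 and Ptgs2. The members and the 58 lists were chosen with earlier results of these data known. A fold against a group with no spot well above background is the mean of the brighter group over the floor of the dimmer one. It is a lower bound only where the brighter group was well above background on all its arrays, which Cxcl2 was not on the CRC females. Alternatives covered normalization, background, filter, probes of a gene, samples, blocks, variance model, array weights, threshold and each array left out. The fits without several arrays together, without that array and within a scan day were added after seeing the data. A small number of items is not reported here.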

Additional observations from a re-analysis of the deposited data

Results flagged for a closer look

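In groups of 4 arrays, the gap between the outermost array and its neighbour was compared with the whole range of the group, which by chance singles out about 1 in 20 groups. Among the levels of the 58 lists this singled out 4 of 116 groups. CRC male 1 was highest for squamous epithelium (gap of 0.836 of the range) and for NRF2 targets and antioxidant enzymes (0.854) and lowest for MHC class II (0.853), and CRC + E171 female 2 was lowest for interferon-stimulated genes (0.886). Among the genes described above it singled out 20 of 266 groups, some of them genes chosen after their values were seen.

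CRC + E171 female 2 was the outermost array for 8 of these genes. It was lowest for Hoxb13 (0.961), Cdh1 (0.85) and Cyp2d34 (0.877), and highest for Hoxb6 (0.98), Slc51a (0.889), Cyp2c65 (0.844), Cyp2c55 (0.856) and Klrh1 (0.884). CRC male 1 was highest for Psors1c2 (0.975), Angptl7 (0.863) and Atg13 (0.884) and lowest for Chgb (0.833) and Zg16 (0.839). CRC + E171 male 2 was highest for S100a9 (0.934) and Lcn2 (0.837) and lowest for Actn3 (0.936). CRC + E171 female 1 was lowest for Clca1 (0.851) and Csf3 (0.882), the latter not well above background. CRC + E171 male 1 was highest for Marveld2 (0.863) and lowest for Tspan4 (0.877).

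The difference with E171 differed between the labelled sexes for 744 genes by limma's interaction term, and 48 of the 133 genes described above were among them. Without CRC male 2 of 14 days, whose Xist level went against its sex label, 44 of the 48 still passed, and Atp12a, Cdh17, Cldn7 and A1cf did not. The epithelial genes had adjusted p of 0.0168 for Hnf4a, 0.0128 for Epcam, 0.00415 for Cdh1, 0.0404 for Cdh17, 0.0222 for Nr1i2, 0.0134 for Nr3c2, 0.0463 for A1cf and 0.00693 for Gprin3. The enzymes had 0.00902 for Cyp2c40, 0.0289 for Cyp2c67, 0.0183 for Cyp2c68, 0.0168 for Cyp2c69, 0.00461 for Cyp2d34, 0.00533 for Cyp2d12, 0.0121 for Cyp2d9, 0.0262 for Sult1d1, 0.0169 for Ugt2b34, 0.00109 for Ces2b, 0.0374 for Ces2c and 0.0388 for Maoa in limma. Mucus, transport and junction genes had limma adjusted p of 0.00542 for Clca1, 0.0185 for Fcgbp, 0.0273 for Tff3, 0.00325 for Muc3, 0.0127 for Slc9a2, 0.034 for Car1, 0.0081 for Aqp8, 0.00575 for Clcn2, 0.041 for Atp12a, 0.0418 for Cldn7, 0.00648 for Cldn23 and 0.00492 for Marveld2. Inflammatory, matrix and vessel genes had 0.0295 for Cxcl1, 0.0454 for Cxcl2, 0.00889 for Ccl7, 0.0302 for Il11, 0.0438 for Il6, 0.0289 for Mmp8, 0.00605 for Mmp13, 0.00325 for Lcn2, 0.0295 for Camp, 0.0129 for Retnlg, 0.00492 for Clec10a, 0.00108 for Flt1, 0.0336 for Ltb4r1 and 0.0259 for Dusp1 in limma. The interferon-stimulated genes Irf7 and Oasl1 had 0.0134 and 0.00492. The male side of this comparison rested on 2 arrays per group, and sex and the particular mice cannot be told apart.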

How the results depend on the processing

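The share of DEG that were up-regulated, 55.9%, was 53.2% under quantile normalization, 65% under normexp background correction, 52.2% without a filter, 50.9% with the highest probe of a gene, 61.4% with probes grouped by deposited gene name, 58.8% with scan day as a block, 53.9% within scan day 1, 47.9% with array weights, 45.7% without both CRC males and 42.2% without these and CRC + E171 female 2. Leaving out each array in turn gave 48.8 to 59.9%, the lowest without CRC male 2. The 2458 DEG became 945 with only the 8 arrays of 7 days, 678 with array weights, 455 without both CRC males, 396 without all 3 arrays and 661 at a log2 fold change of 1.5, and 915 to 3976 when each array was left out. Genes with an adjusted p under 0.05 in limma numbered 1 without a filter and 0 to 1201 when each array was left out, those that differed from other days 0 to 2, and those that differed between sexes 158 to 1723.

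Same-numbered arrays had deviations that correlated at 0.04, 0.37, 0.16 and -0.11, and 2 of the 4 CRC arrays correlated best with their own number, so the numbers were not taken to pair the mice, although same-numbered arrays shared their sex and those numbered 1 a scan day. With the replicate block there were 2546 DEG, 55.1% of them up-regulated, and 190 of the 192 genes named by rule kept their call. Without both CRC males 12 of the 192 kept their call, 151 lost it and 29 changed sign, as did the medians of 23 of 58 lists; with array weights 40 kept it, and without CRC male 2 of 14 days 190.

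The signs that turned without both CRC males were those of Rnf43 (-0.014), Flt1 (0.019), Camp (0.13), Lrg1 (0.087), Cyp2c40 (-0.68), Cyp2c69 (-0.61), Cyp2c67 (-0.58), Cyp2c68 (-0.60), Cyp2d34 (-0.12), Cyp2d12 (-0.13), Cyp2d9 (-0.090), Cyp4f14 (-0.30), Cyp3a13 (-0.032), Ugt2b34 (-0.16), Ugt2a1 (-0.072), Mgst3 (-0.20), Gstt3 (-0.16), Slc39a14 (0.072), Acot1 (0.031), Acsm3 (-0.025), Mmp13 (0.49), Mmp10 (0.18), F2rl1 (-0.0087), Col4a2 (0.029), Itgb3 (0.26), Masp1 (0.031), Irf1 (-0.038), Oasl1 (-0.25), Irf7 (-0.087), Lcn2 (0.88), Wnt6 (0.039), Gpx3 (0.042), Cxcl1 (0.72), Cxcl5 (0.42), Ptgs2 (0.39), Vdr (-0.39), Aqp8 (-1.19), Slc26a3 (-0.73), Epcam (-0.45) and Cdh1 (-0.21). Itgb3 (0.028), Ptgs2 (0.027) and Epcam (-0.15) turned with array weights, Itga10 (-0.24) with the highest probe and Il31ra (0.015) under normexp. The cause was not tested.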

Other observations

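Other lists described the remaining cells of the wall, beside 12.4% of all genes that were DEG, 6.94% up-regulated and 5.48% down-regulated. Of 20 fibroblast genes 7 were down-regulated and 0 up-regulated with E171, of 12 mast cell genes 3 and 0, and of 16 Fc receptor genes 5 and 1. Of 39 FGF and EGF family genes 9 were down-regulated and 4 up-regulated, of 25 integrins 2 and 2, and of 34 antimicrobial and acute-phase genes 2 and 4. Of 32 fatty acid oxidation genes 1 was down-regulated and 5 up-regulated, and of 37 amino acid, sugar and metal transport genes 1 and 7. Enteric neuron genes had 0 and 1 of 20, enteric glia genes 2 and 1 of 16 and adipocyte genes 0 and 1 of 15. The lists of smooth muscle (20 genes), erythroid (7), MHC class II (12) and posterior Hox genes (10) held 0 DEG. Whether any of these shares differed from those of all genes was not tested.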
